A study of Mus musculus with 70 samples.

Results

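Conventional dendritic cells of type 1 (cDC1) were compared with those of type 2 (cDC2) from spleens of mice that lack Rag1, and so lack mature B and T cells. All 12 libraries labelled cDC1 or cDC2 and Rag1-/- were taken, out of 70 libraries in the series, which give 6 cDC1 libraries and 6 cDC2 libraries. Each set of 6 holds 3 libraries from NOD Rag1-/- mice and 3 from B6 Rag1-/- mice. NOD is a strain that develops autoimmune diabetes when its lymphocytes are present, and B6 is the common C57BL/6 strain without that disease. All mice were 8 to 10 weeks old and had received PBS into the peritoneum 5 h before the spleens were taken. The Rag1 deletion, the PBS injection and sequencing run 1 were thus common to both lineages. The sort column of the deposited table names CD8a for the cDC1 libraries and 33D1 for the cDC2 libraries. The 33D1 antibody binds the product of Clec4a4, so neither Cd8a nor Clec4a4 is a finding here. Where the lineage difference was set against lymphocyte-replete spleens, 24 cDC libraries of PBS-injected NOD and B6g7 mice were used, 6 per cell type and strain.

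cDC1 and cDC2 arise from a common precursor. IRF8 and BATF3 direct cDC1, which take up dead cells, present their antigens on MHC class I to CD8 T cells and sense double-stranded RNA and profilin. IRF4, RELB and Notch2 signals shape splenic cDC2, which favour presentation on MHC class II to CD4 T cells. Lymphocytes feed signals such as lymphotoxin, CD40 ligand and interferon-gamma to dendritic cells.

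In composite motifs an IRF factor binds next to a partner. The promoters below are those of genes described further on that hold such a motif, and they are shown because the lineages differ in the IRF factors Irf8 and Irf4 (values below). Each is the RefSeq sequence (GRCm38.p6) from 250 bases before to 50 bases after a transcription start, and capitals mark the motif. Searched on both strands were the core of the BATF-IRF composite (TTTC, any 4 bases, TGA) and that of the ETS-IRF composite (GGAA, any 2 bases, GAAA).
Xcr1, chr9:123861980-123862279, minus strand, BATF-IRF core on the opposite strand: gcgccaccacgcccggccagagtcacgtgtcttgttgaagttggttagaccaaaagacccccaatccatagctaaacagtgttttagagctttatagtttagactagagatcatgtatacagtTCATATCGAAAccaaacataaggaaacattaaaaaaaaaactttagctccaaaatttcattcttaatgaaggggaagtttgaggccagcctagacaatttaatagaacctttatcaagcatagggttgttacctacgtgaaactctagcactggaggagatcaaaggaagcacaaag
Clec9a, chr6:129408612-129408911, plus strand, BATF-IRF core: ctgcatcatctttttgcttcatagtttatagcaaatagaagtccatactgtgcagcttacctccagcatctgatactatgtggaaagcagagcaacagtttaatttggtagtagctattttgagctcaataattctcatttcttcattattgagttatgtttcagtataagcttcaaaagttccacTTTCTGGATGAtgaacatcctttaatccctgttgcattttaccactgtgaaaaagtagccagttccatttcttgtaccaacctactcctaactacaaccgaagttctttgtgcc
Gpr33, chr12:52028014-52028313, minus strand, ETS-IRF core and then BATF-IRF core on the opposite strand: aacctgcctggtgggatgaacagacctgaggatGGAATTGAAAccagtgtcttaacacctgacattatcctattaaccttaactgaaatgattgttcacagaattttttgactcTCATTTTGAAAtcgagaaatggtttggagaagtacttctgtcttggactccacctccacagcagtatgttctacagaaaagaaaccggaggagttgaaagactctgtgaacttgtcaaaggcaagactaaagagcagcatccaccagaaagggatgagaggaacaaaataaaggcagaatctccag
Clec4a1, chr6:122921598-122921897, plus strand, ETS-IRF core on the opposite strand: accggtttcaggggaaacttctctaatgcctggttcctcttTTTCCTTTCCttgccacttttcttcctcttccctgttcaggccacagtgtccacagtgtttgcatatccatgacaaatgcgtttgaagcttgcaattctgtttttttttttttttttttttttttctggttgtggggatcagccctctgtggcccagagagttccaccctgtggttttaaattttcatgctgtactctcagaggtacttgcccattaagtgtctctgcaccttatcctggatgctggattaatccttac
Xcr1, Clec9a and Gpr33 were higher in cDC1, and Clec4a1 was higher in cDC2 (values below). They were chosen after their values and matches were seen. Of 251 genes with a promoter entry that were at least 4-fold higher in cDC1 without overlap between libraries, 13 (5.18%) held the BATF-IRF core. Of 354 such genes higher in cDC2, 18 (5.08%) held it. It was held by 384 (3.86%) of all 9943 tested genes with an entry and by 1423 (5.26%) of all 27025 genes with an entry. A gene counted once if any of its promoters held the core. The ETS-IRF core was held by 4 (1.59%) of the cDC1-high genes, by 16 (4.52%) of the cDC2-high genes and by 293 (2.95%) of the tested genes. These are matches of letters and not bound sites, and the shares were not tested.

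The 12 libraries held 14.7 to 20.2 M expected counts. They were made from 6847 to 11969 sorted cells for cDC1 and 10000 to 14529 for cDC2, with RNA integrity numbers of 8.1 to 9.5 for cDC1 and 8.4 to 8.9 for cDC2. Lineage was the main axis of variation: the first principal component held 52.7% of the variance and separated cDC1 from cDC2, and the second held 24.6% and separated NOD from B6 libraries. RNA of the B cell receptor component Cd79a was at 0 to 0.183 CPM (counts scaled to a common library size) in cDC1 and 0 to 0.271 CPM in cDC2, and Cd3e had no count in any of the 12 libraries. On the scale of a joint fit, Cd79a reached 0.243 CPM in Rag1-/- libraries, while the lowest of the 24 Rag-sufficient libraries had 1.29 CPM. Rag1 itself gave 2 to 18 counts per cDC1 library and 10 to 27 per cDC2 library, against none in the Rag-sufficient cDC libraries. A count over the whole gene does not show which part is deleted, so Rag1 does not check the genotype labels. RNA of Y-linked genes such as Ddx3y was found in the 3 libraries sorted on 11.14.2014 (452 to 883 counts), beside Xist, which was present in all 12.

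Total RNA per sorted cell, from the labels, was 0.187, 0.275 and 0.403 pg (lowest, median, highest) in cDC1, against 0.116, 0.159 and 0.212 pg in cDC2. The mean was 0.288 ± 0.095 pg in cDC1 and 0.164 ± 0.034 pg in cDC2 (SD, n = 6 each), a difference of 0.124 pg (exact two-sided permutation test, p = 0.013, where the smallest possible is 0.00216). Within 1 strain the differences were 0.115 pg in NOD and 0.132 pg in B6 mice (p = 0.2 each by the same exact test, where 3 against 3 libraries cannot go below 0.1). The test of 6 against 6 libraries shuffled them without regard to strain or sort date. Of the NOD libraries sorted on 11.14.2014, cDC1 had 0.187 pg and cDC2 0.192 pg. In every other same-dated set of a strain cDC1 had more, such as 0.403 against 0.1575 pg in NOD on 02.02.2015. All values below are scaled to library size, so they show shares of a library's RNA and not molecules per cell.

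Of 12393 tested genes, 4770 (38.5%) differed between cDC1 and cDC2 at an adjusted p under 0.05, 2472 (19.9%) higher and 2298 (18.5%) lower in cDC1. Counts of list members below stand beside these shares. At least 4-fold differences were found for 387 genes higher and 685 lower in cDC1. The 10 most abundant genes held 13.2 to 16.7% of counts in cDC1 libraries and 8.17 to 10.3% in cDC2 libraries, and the scaling factors ran from 0.882 to 1.17. Without scaling factors the calls were 1654 higher and 3408 lower, and the median log2 change of all genes was -0.24 in place of -0.05. The libraries of both lineages did not overlap for 1394 genes (11.2%) higher in cDC1 and 1132 (9.13%) higher in cDC2, 2526 (20.4%) in all. Nothing in the labels says whether libraries of a group came from different mice, so p-values measure the spread between these samples.

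The 4 lineage markers separated the libraries without overlap. Xcr1, the receptor for the chemokine XCL1 made by NK and CD8 T cells, was at 1260.2, 1494 and 1859.8 CPM (lowest, median, highest) in cDC1, against 5.19, 6.53 and 11.1 in cDC2. Its log2 change was 7.67 ± 0.26 (SE, adjusted p = 1.06e-09). Clec9a, which binds actin exposed on dead cells, was at 433, 584 and 865 CPM in cDC1, against 0.701, 2.44 and 3.07 in cDC2 (log2 change 8.01 ± 0.35 SE, adjusted p = 1.92e-08). Both cDC1 markers were high in each of the 6 cDC1 libraries. Clec4a4, the target of the sort antibody, was at 0, 0.450 and 1.04 CPM in cDC1, against 106, 163 and 207 in cDC2 (log2 change -8.50 ± 0.47). Sirpa, an inhibitory receptor for CD47, was at 61.7, 88.4 and 420.4 CPM in cDC1, against 886, 1221 and 2059 in cDC2 (log2 change -3.06 ± 0.51 SE, adjusted p = 0.0006). Its 2 highest cDC1 values, 420 and 225 CPM, were in the cDC1 B6 Rag1-/- 3 and cDC1 NOD Rag1-/- 3 libraries, which also had the highest red pulp macrophage markers among cDC1 (described below).

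**Figure D1:**
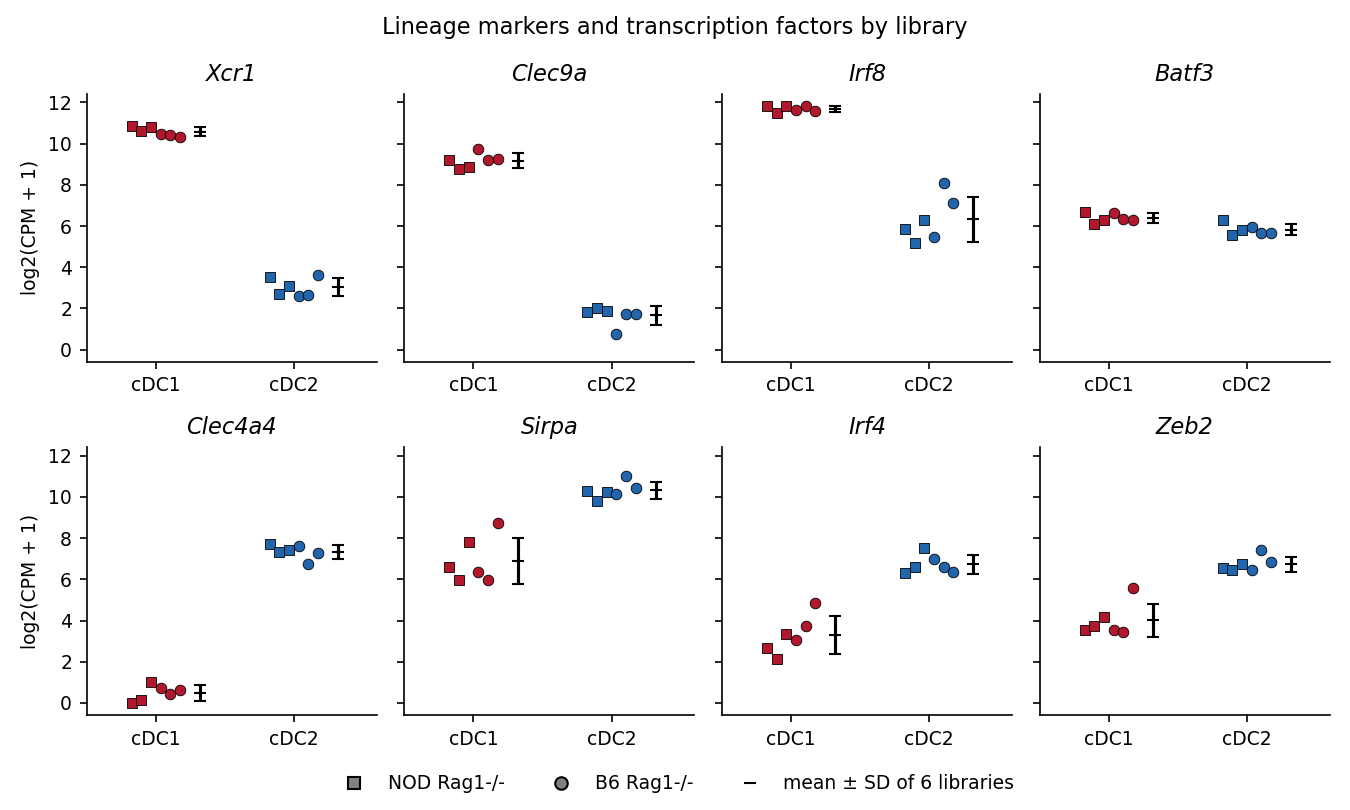
log2(CPM + 1) of 4 lineage markers and 4 transcription factors in each library, cDC1 on the left and cDC2 on the right of each panel; bars give mean and SD of 6 libraries. Xcr1, Clec9a and Irf8 do not overlap between lineages, Batf3 does, and in cDC1 the values of Sirpa and Zeb2 spread upward in the B6 Rag1-/- 3 library.

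All 20 genes of a list of cDC1 markers, which holds the sort antigen gene Cd8a, were higher in cDC1, with a median log2 change of 5.30, against -0.05 for all tested genes. Among them, Itgae (CD103, which binds E-cadherin) was at 554, 767 and 968 CPM in cDC1 and 2.03, 3.60 and 4.75 CPM in cDC2, and Naaa, an acid amidase of lysosomes, was at 2965, 3464 and 4203 CPM in cDC1 and 35.97, 59.7 and 72.8 CPM in cDC2. Their log2 changes were 7.68 ± 0.26 (SE, adjusted p = 1.06e-09) for Itgae and 5.98 ± 0.21 (SE, adjusted p = 1.06e-09) for Naaa. Of 20 cDC2 markers, 15 were lower, the sort target Clec4a4 among them, and 3 higher in cDC1, with a median log2 change of -3.02. Cd4, carried by splenic cDC2 in mice, was at 12.2, 24.5 and 48.5 CPM in cDC1 and 194, 306 and 414 CPM in cDC2 (log2 change -3.69 ± 0.24 SE, adjusted p = 1.96e-07). Esam, an adhesion molecule of the Notch2-dependent cDC2 subset, was at 5.82, 7.03 and 12.05 CPM in cDC1 and 38.1, 65.5 and 111 CPM in cDC2 (log2 change -3.06 ± 0.27 SE, adjusted p = 3.16e-06). The 3 that ran the other way were Lyz2, Ccr2 and Clec12a. Lyz2, lysozyme, was at 395, 652 and 866 CPM in cDC1 and 40.4, 147 and 300.1 CPM in cDC2, without overlap (log2 change 1.92 ± 0.40 SE, adjusted p = 0.00267). Ccr2, which draws monocytes and precursors from the marrow, was at 29.4, 79.9 and 151 CPM in cDC1 and 4.16, 14.1 and 33.6 CPM in cDC2, with overlap (log2 change 2.23 ± 0.48 SE, adjusted p = 0.00359). Clec12a, a receptor for uric acid crystals, overlapped as well and lost its call when any of the 3 cDC2 NOD Rag1-/- libraries was left out (adjusted p of 0.0533 to 0.0662).

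The 15 largest rises in cDC1 among genes of at least 10 CPM without overlap included, beside the sort marker Cd8a, receptors and enzymes. Gpr33, an orphan receptor, had 2747 counts over the 6 cDC1 libraries and 2 over the cDC2 libraries, and Alpl, alkaline phosphatase, had 2525 in cDC1 and 2 in cDC2. Cd207, langerin, was at 160.2, 517 and 1263 CPM in cDC1, against 0, 1.85 and 5.25 in cDC2 (log2 change 8.44 ± 0.54 SE, adjusted p = 4.77e-07). Within cDC1 it was higher in each NOD library (834 to 1263 CPM) than in each B6 library (160 to 200 CPM), and the lineage difference was large in both strains. Fzd1, a Wnt receptor, was at 76.9, 91.1 and 99.8 CPM in cDC1, against 0, 0.253 and 1.19 in cDC2 (log2 change 7.91 ± 0.59 SE, adjusted p = 1.52e-06). Dkk3, a secreted protein of the Dickkopf family, was at 53.5, 103 and 233 CPM in cDC1, against 0, 0 and 0.574 in cDC2 (log2 change 9.89 ± 0.50 SE, adjusted p = 5.76e-08). The others were Xcr1, Clec9a, Itgae, Gramd2, Clec4b2, Cyp8b1, Gpr141b, Trabd2b and F630111L10Rik, with fitted log2 changes of 7.63 to 8.43.

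The 15 largest falls held 3 genes with no count in cDC1. Sucnr1, the receptor for succinate, had 4102 counts over the cDC2 libraries and was at least 1086-fold lower in cDC1, against a floor of 3 counts over the 6 libraries. L3mbtl4 and Cdhr3 had 2633 and 1923 counts over the cDC2 libraries. By the same floor they were at least 706-fold and 522-fold lower in cDC1. L3mbtl4 was at 31.7 to 57.0 CPM in cDC2 of NOD mice and 1.25 to 1.92 CPM in cDC2 of B6 mice. Dtx1, a Deltex ubiquitin ligase induced by Notch, was at 0, 0 and 0.488 CPM in cDC1, against 149, 231 and 304 in cDC2. Ryr3, an intracellular calcium channel, was at 0, 0.0305 and 0.366 CPM in cDC1, against 12.96, 101 and 573 in cDC2, where the 3 NOD libraries (176 to 573 CPM) lay above the 3 B6 libraries (12.96 to 25.97 CPM). Mmp12, macrophage elastase, was at 0.705, 1.59 and 2.81 CPM in cDC1, against 163, 322 and 666 in cDC2 (log2 change -7.59 ± 0.44 SE, adjusted p = 1.85e-07). Cd101, an inhibitory receptor, was at 0, 0.185 and 0.588 CPM in cDC1, against 33.4, 68.5 and 101 in cDC2 (log2 change -8.25 ± 0.45 SE, adjusted p = 6.7e-08). Cr2 and Blk, which are best known from B cells, are given with the B cell markers below. Slc44a5, Scel, Dscam, Sel1l3, 2900052N01Rik and Clec4a4 made up the rest, with fitted log2 changes of -8.83 to -7.40.

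Of 30 lineage transcription factors, 5 were higher and 10 lower in cDC1, and 14 of those 15 did not overlap between lineages. Irf8, the factor that commits cells to cDC1, was at 2859, 3391 and 3649.8 CPM in cDC1, against 34.7, 67.2 and 272 in cDC2 (log2 change 5.17 ± 0.49 SE, adjusted p = 1e-05). The highest cDC2 value, 272 CPM, was in the library with the highest macrophage markers. Id2, an inhibitor of E proteins, was at 1362, 1701 and 2596 CPM in cDC1, against 314, 457 and 763 in cDC2 (log2 change 1.96 ± 0.23 SE, adjusted p = 2.33e-05). Batf3, required for cDC1 to develop, differed far less. It was at 67.8, 78.8 and 103 CPM in cDC1, against 47.02, 52.1 and 76.4 in cDC2, with overlap, and its log2 change was 0.58 ± 0.14 (SE, adjusted p = 0.00591). It was not called without scaling factors (0.40), with all Rag1-/- libraries in the fit (0.58), in NOD mice alone (0.45), without the libraries of 04.03.2015 (0.58) or without those of high macrophage markers (0.34). Rbpj and Notch2, the DNA-binding partner of Notch and a Notch receptor, were also higher in cDC1, by 1.21 ± 0.10 (SE, adjusted p = 1.31e-06) for Rbpj and 0.53 ± 0.10 (SE, adjusted p = 0.000925) for Notch2 on the log2 scale.

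The 10 factors lower in cDC1 included several known from cDC2. Irf4, which cDC2 need for migration and priming, was at 3.41, 8.24 and 27.4 CPM in cDC1, against 78.8, 95.02 and 181 in cDC2 (log2 change -3.47 ± 0.47 SE, adjusted p = 0.000133). Relb, an NF-kB subunit needed for cDC2, was at 45.4 to 85.3 CPM in cDC1, against 234 to 423 CPM in cDC2 (log2 change -2.43 ± 0.20 SE, adjusted p = 1.41e-06). Klf4 was at 5.75, 11.9 and 25.9 CPM in cDC1, against 36.95, 57.6 and 136 in cDC2 (log2 change -2.40 ± 0.42 SE, adjusted p = 0.000836). Zeb2, a repressor that opposes Id2, was at 10.01, 11.5 and 46.3 CPM in cDC1, against 85.5, 99.3 and 168 in cDC2, and the B6 Rag1-/- 3 library stood apart within cDC1 (log2 change -2.63 ± 0.38 SE, adjusted p = 0.000197). Tbx21, the factor T-bet, was at 0, 1.51 and 6.09 CPM in cDC1, against 16.6, 24.97 and 44.4 in cDC2 (log2 change -3.96 ± 0.66 SE, adjusted p = 0.000584). Ikzf3, Cebpb, Prdm1, Runx3 and Ikzf1 were lower in cDC1 too, with log2 changes of -3.82 to -0.63. Zbtb46, which marks conventional dendritic cells as a whole, did not pass the test (log2 change 0.25 ± 0.15 SE, adjusted p = 0.223), nor did Spi1, the factor PU.1 (log2 change -0.25 ± 0.09 SE, adjusted p = 0.0554). With sort date as a block, Bcl6 (log2 change 0.44) was called higher, and Spi1, Nr4a1 and Cebpa were among those called lower, in cDC1. Without scaling factors the list gave 4 rises and 15 falls.

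Of 14 Toll-like receptor genes and partners, 3 were higher and 4 lower in cDC1 (50% called, against 38.5% of all tested genes). Tlr3, which senses double-stranded RNA, was at 563, 686 and 897 CPM in cDC1, against 10.5, 18.8 and 22.9 in cDC2 (log2 change 5.30 ± 0.19 SE, adjusted p = 1.06e-09). Tlr11 and Tlr12, which sense profilin of protozoa in mice, were at 394, 465 and 644 CPM in cDC1, against 18.9, 30.4 and 87.5 in cDC2, for Tlr11, and at 59.6, 131 and 188 CPM in cDC1, against 2.99, 8.92 and 13.8 in cDC2, for Tlr12. Their log2 changes were 3.80 ± 0.35 (SE, adjusted p = 6.3e-06) and 3.81 ± 0.43 (SE, adjusted p = 3.38e-05). Tlr7, which senses single-stranded RNA, was at 2.996, 5.53 and 35.5 CPM in cDC1, against 129, 148 and 205 in cDC2 (log2 change -3.96 ± 0.63 SE, adjusted p = 0.000471). Tlr5, the flagellin receptor, was at 0, 1.84 and 2.99 CPM in cDC1, against 11.4, 21.3 and 33.04 in cDC2 (log2 change -3.84 ± 0.71 SE, adjusted p = 0.00114). Tlr1 and Tlr6, partners of Tlr2 for lipopeptides, were lower in cDC1 by log2 changes of -2.92 ± 0.28 (SE, adjusted p = 7.17e-06) and -0.90 ± 0.13 (SE, adjusted p = 0.000105). Tlr2, Tlr4, Tlr8, Tlr9, Tlr13, Cd14 and Unc93b1 did not pass.

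Cytosolic sensors lay mostly on the cDC2 side. Of 18 tested, 10 were lower and 1 higher in cDC1, with a median log2 change of -1.06. Ddx58, which encodes the RNA sensor RIG-I, was at 3.11, 5.77 and 19.5 CPM in cDC1, against 62.1, 112 and 167 in cDC2 (log2 change -3.90 ± 0.39 SE, adjusted p = 1.24e-05). Nod1, a sensor of bacterial peptidoglycan, was at 18.3, 44.3 and 73.4 CPM in cDC1, against 124, 211 and 298 in cDC2 (log2 change -2.25 ± 0.16 SE, adjusted p = 3.91e-07). Nlrc4, the inflammasome sensor of flagellin, was at 0.639, 4.14 and 5.07 CPM in cDC1, against 26.1, 29.6 and 33.9 in cDC2 (log2 change -3.09 ± 0.36 SE, adjusted p = 2.65e-05). Casp1, the inflammasome protease, was at 34.9, 48.7 and 50.9 CPM in cDC1, against 77.2, 122 and 142 in cDC2 (log2 change -1.36 ± 0.16 SE, adjusted p = 2.03e-05). Ifih1, Nlrp10, Nlrp3, Sting1, Zbp1 and Casp4 fell as well. The single rise was Nlrc5, which turns on MHC class I genes. It was at 84.2, 119 and 187 CPM in cDC1, against 50.9, 73.3 and 92.02 in cDC2, with overlap (log2 change 0.76 ± 0.20 SE, adjusted p = 0.00872). Nlrc5 was not called in B6 mice alone (log2 change 0.49) or with all Rag1-/- libraries in the fit (0.76). Nor was it called without the libraries of 11.14.2014 (0.57) or those of high macrophage markers (0.58).

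Type I interferon-stimulated genes showed the same lean. Of 30 tested, 17 were lower and 4 higher in cDC1, with a median log2 change of -1.16. Oas2, which makes the activator of RNase L, was at 0, 0.773 and 8.67 CPM in cDC1, against 51.1, 83.9 and 126 in cDC2 (log2 change -5.65 ± 0.73 SE, adjusted p = 0.000108). Ifit1, which binds viral RNA ends, was at 3.06, 4.54 and 9.76 CPM in cDC1, against 30.5, 53.95 and 94.8 in cDC2 (log2 change -3.33 ± 0.24 SE, adjusted p = 3.85e-07). Oasl2 was at 2.93, 7.55 and 27.5 CPM in cDC1, against 50.5, 133 and 224 in cDC2 (log2 change -3.84 ± 0.39 SE, adjusted p = 1.52e-05). Members called the other way were led by Mx1, which encodes a GTPase. It was at 67.2, 78.6 and 112 CPM in cDC1, against 32.1, 35.7 and 65.9 in cDC2 (log2 change 1.06 ± 0.16 SE, adjusted p = 0.000177), while Trim30a, Parp12 and Ifi35 were higher in cDC1 as well. Stat2, Irf7, Irf9 and Bst2 were among 9 members that did not pass. Without the 3 libraries of highest macrophage marker sum in each lineage (described below), 14 members were lower and 3 higher, with a median of -1.06. Of the interferon receptor subunits, Ifnar1 was at 120.3, 132 and 139 CPM in cDC1, against 79.2, 90.5 and 112 in cDC2 (log2 change 0.49 ± 0.08 SE, adjusted p = 0.000376), and Ifnar2 was at 113, 128 and 145 CPM in cDC1, against 154, 223 and 292 in cDC2 (log2 change -0.77 ± 0.12 SE, adjusted p = 0.00029). The subunits thus moved in opposite directions, without overlap for either.

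**Figure D2:**
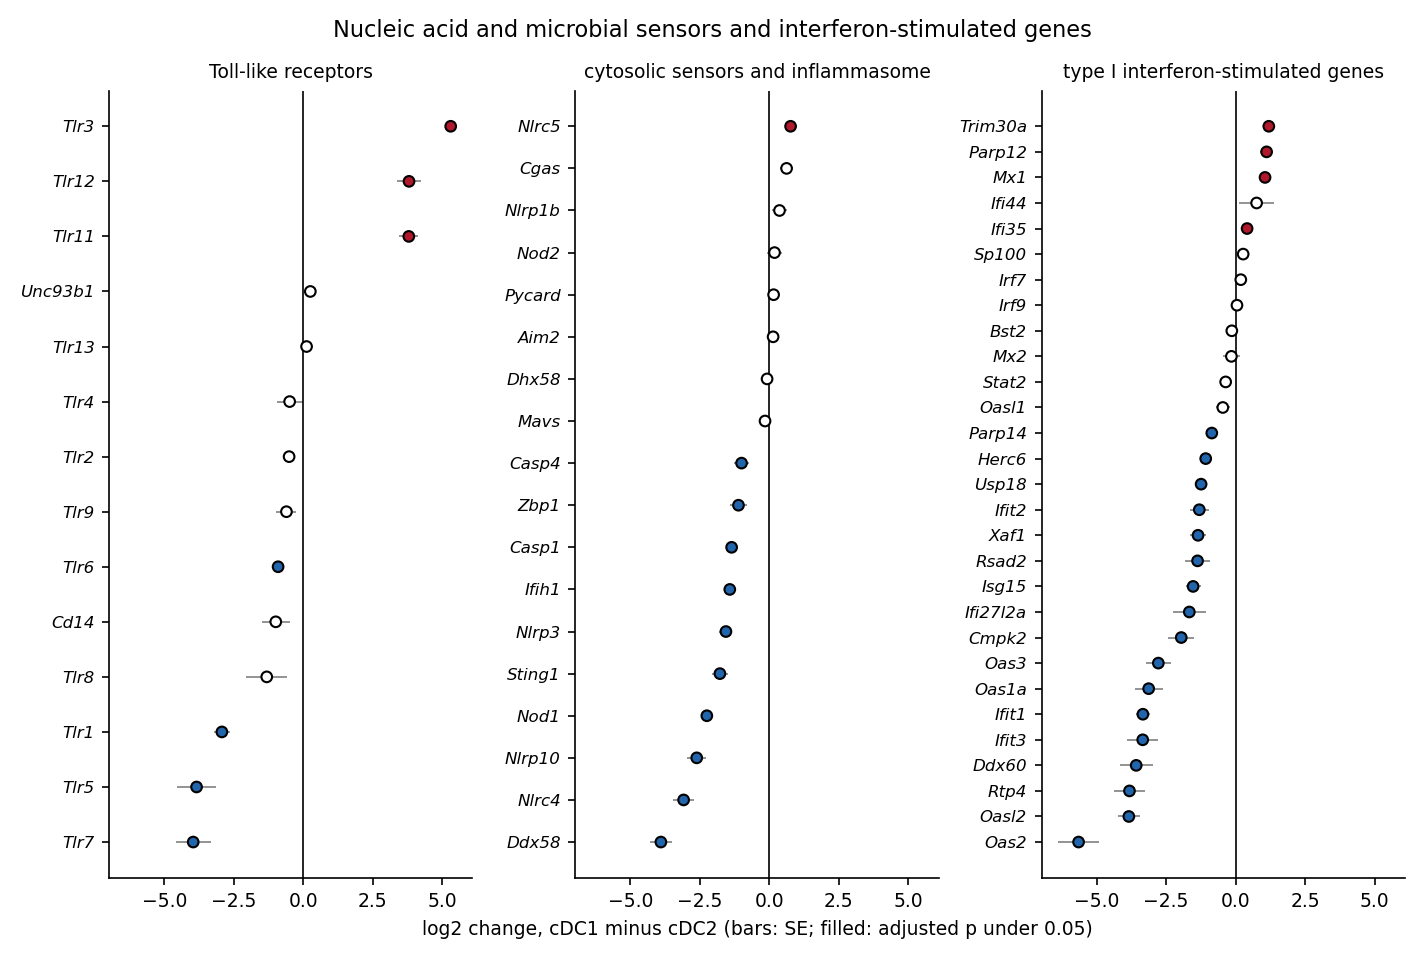
log2 change, cDC1 minus cDC2, for tested members of 3 lists, with standard errors as bars; filled points passed an adjusted p of 0.05. Tlr3, Tlr11 and Tlr12 lie at 3.80 to 5.30, while 10 cytosolic sensors and 17 interferon-stimulated genes were called below 0.

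C-type lectins, which bind sugars, dead cells and fungal walls, were split, with 6 of 22 higher and 9 lower in cDC1, Clec4a4 again among the 9. Ly75 (DEC-205), an endocytic receptor used to target antigen to cDC1, was at 109.6, 153 and 178 CPM in cDC1, against 8.49, 14.1 and 18.4 in cDC2 (log2 change 3.39 ± 0.18 SE, adjusted p = 3.74e-08). The inhibitory receptor Clec4a2 was at 5.56, 13.6 and 51.1 CPM in cDC1, against 113, 153 and 224 in cDC2 (log2 change -2.99 ± 0.47 SE, adjusted p = 0.000449). Cd209a, a DC-SIGN homologue, was at 5.29, 20.9 and 109 CPM in cDC1, against 340.3, 427 and 720.2 in cDC2 (log2 change -4.01 ± 0.65 SE, adjusted p = 0.000544). Clec4a1, whose promoter is printed above, was at 3.22, 5.36 and 35.3 CPM in cDC1, against 63.8, 116 and 163 in cDC2 (log2 change -3.28 ± 0.55 SE, adjusted p = 0.000634). In cDC1 the highest values of Clec4a1, Clec4a2 and Cd209a were all in the B6 Rag1-/- 3 library. The Clec4a genes are near copies of each other, as are those of the Cd209 family, so single values depend on how reads were assigned.

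MHC class I carries peptides to CD8 T cells. Of 20 genes, 14 were higher and 1 lower in cDC1, with a median log2 change of 0.72. Without scaling factors the counts were 10 higher and 3 lower. Rab43, a GTPase needed for cross-presentation, was at 619, 672 and 747 CPM in cDC1, against 182, 222 and 241 in cDC2 (log2 change 1.64 ± 0.09 SE, adjusted p = 4.4e-08). Psmb9, an immunoproteasome subunit, was at 509.7, 607 and 697 CPM in cDC1, against 179, 235 and 258 in cDC2 (log2 change 1.41 ± 0.11 SE, adjusted p = 5.98e-07). Pdia3, part of the peptide-loading complex, was at 1555, 1728 and 1957 CPM in cDC1, against 559, 634 and 958 in cDC2 (log2 change 1.31 ± 0.13 SE, adjusted p = 4.13e-06). Tap1, Tap2, Tapbp, Tapbpl, Calr, Canx, Psmb8, Psme1, Psme2, Nlrc5 and H2-D1 were the other rises, while H2-K1, B2m, Erap1, Psmb10 and Sec22b did not pass. The fall was Cybb, a subunit of the NADPH oxidase that limits acid in phagosomes. It was at 45.2, 77.2 and 217 CPM in cDC1, against 66.4, 305 and 642 in cDC2. Its log2 change was -1.34 ± 0.36 (SE, adjusted p = 0.0118), and it was -0.52 in NOD and -2.15 in B6 mice.

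Presentation on MHC class II was mixed, with 8 of 17 genes higher and 5 lower in cDC1 and a median log2 change of 0.13. H2-DMb1, a subunit of the peptide exchanger, was at 473, 865 and 1412 CPM in cDC1, against 242, 416 and 485 in cDC2 (log2 change 1.13 ± 0.14 SE, adjusted p = 3.95e-05). Its paralogue H2-DMb2 was at 105, 205 and 453 CPM in cDC1, against 370.05, 557 and 917 in cDC2, the other way (log2 change -1.54 ± 0.18 SE, adjusted p = 2.45e-05). H2-Ab1 was at 13039, 17361 and 21013 CPM in cDC1, against 7508, 10365 and 13272 in cDC2, with overlap (log2 change 0.70 ± 0.11 SE, adjusted p = 0.000263). With the authors' post-processed values the change of H2-Ab1 was -0.38 and that of H2-Aa was -0.20, the opposite direction. Without the 3 libraries of highest macrophage marker sum in each lineage 2 members were higher and 5 lower, with a median of -0.06. In those 6 libraries H2-Ab1 was at 0.57 (adjusted p = 0.0555) and H2-Aa at 0.49 (adjusted p = 0.0857) on the log2 scale. Without scaling factors 6 were higher and 7 lower. H2-Eb2 was at 3.98, 11.3 and 20.7 CPM in cDC1, against 63.4, 100.2 and 135 in cDC2 (log2 change -3.26 ± 0.28 SE, adjusted p = 3.08e-06), and Ifi30, a thiol reductase of antigen processing, was lower too (log2 change -1.15 ± 0.16 SE, adjusted p = 0.000114). Marchf1, a ligase that removes MHC class II from the surface, was higher in cDC1 (log2 change 0.82 ± 0.11 SE, adjusted p = 8.1e-05). MHC paralogues share reads, and the class II alleles of NOD differ from B6, so these values are less certain than others.

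**Figure D3:**
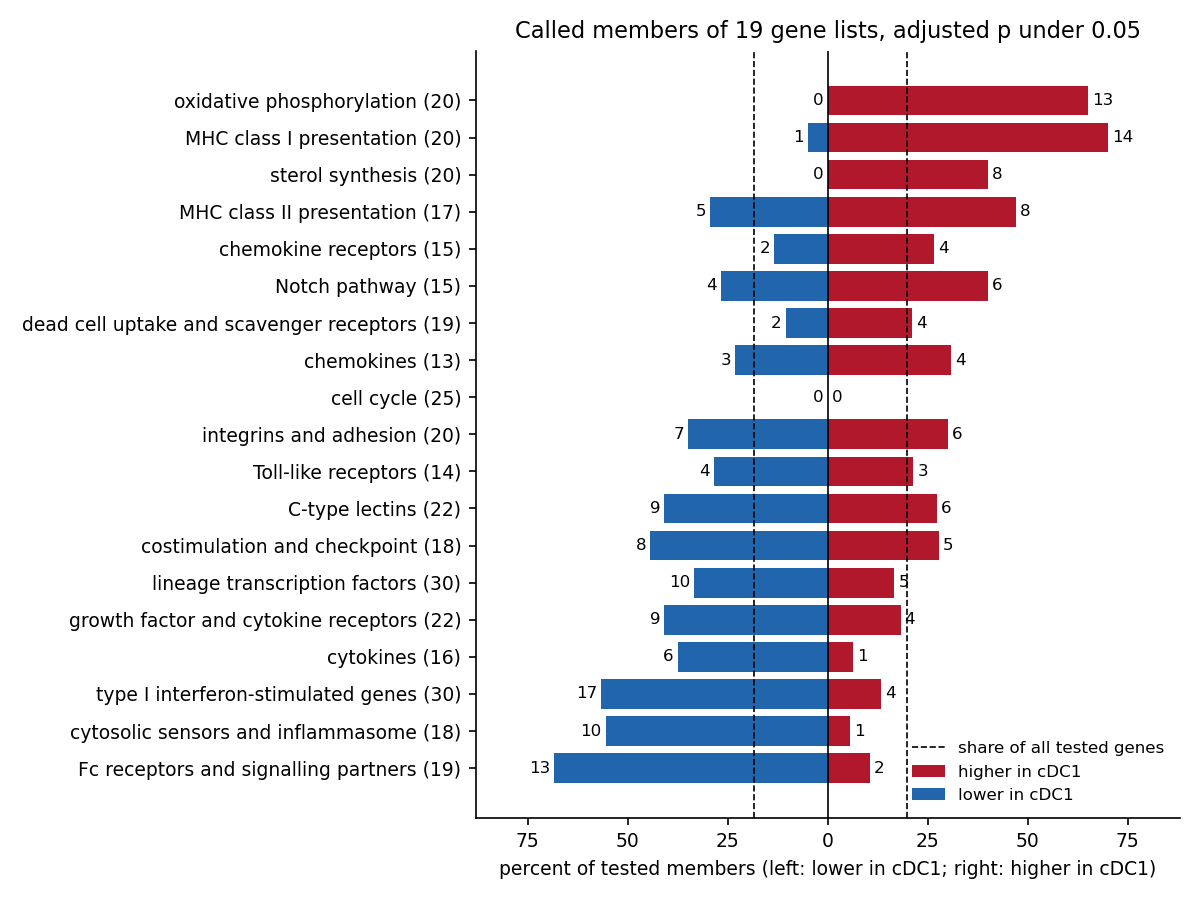
Percent of tested members of 19 gene lists called higher (right) or lower (left) in cDC1, with counts beside the bars and the number tested in brackets; dashed lines mark 19.9% and 18.5% of all tested genes. MHC class I, oxidative phosphorylation and sterol synthesis extend to the right, Fc receptors, cytosolic sensors and interferon-stimulated genes to the left, and no cell cycle gene was called.

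Chemokine receptors guide dendritic cells within and between tissues. Of 15 tested, 4 were higher and 2 lower in cDC1 (40% called, near the 38.5% of all tested genes). Cxcr3, the receptor for CXCL9 and CXCL10, was at 137, 157 and 169.99 CPM in cDC1, against 9.63, 11.3 and 16.1 in cDC2 (log2 change 3.70 ± 0.14 SE, adjusted p = 1.68e-09). Ccr9 was at 30.3, 42.2 and 69.4 CPM in cDC1, against 2.995, 3.84 and 4.19 in cDC2 (log2 change 3.60 ± 0.17 SE, adjusted p = 1.77e-08). Gpr183 (EBI2), the oxysterol receptor that holds cDC2 in the bridging channels, was at 18.3, 31.1 and 42.1 CPM in cDC1, against 139.9, 204 and 557 in cDC2 (log2 change -3.07 ± 0.39 SE, adjusted p = 9.08e-05). Ccr6 was at 0, 0.512 and 1.71 CPM in cDC1, against 14.9, 46.4 and 102 in cDC2 (log2 change -6.46 ± 0.36 SE, adjusted p = 4.93e-08). In cDC2 the 3 NOD libraries had 67.4 to 102 CPM of Ccr6 and the 3 B6 libraries 14.9 to 25.4.

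Of 13 chemokines, 4 were higher and 3 lower in cDC1. Cxcl9, which draws CXCR3-bearing T cells, was at 54.9, 102 and 177 CPM in cDC1, against 1.69, 4.25 and 5.09 in cDC2 (log2 change 4.92 ± 0.35 SE, adjusted p = 5.95e-07). Ccl22, which draws regulatory T cells, was at 33.6, 69.99 and 96.1 CPM in cDC1, against 0.230, 2.57 and 7.06 in cDC2 (log2 change 4.60 ± 0.69 SE, adjusted p = 0.000293). On the cDC2 side, Ccl5 was at 9.22, 24.2 and 27.2 CPM in cDC1, against 126, 265 and 329 in cDC2 (log2 change -3.62 ± 0.35 SE, adjusted p = 1.1e-05), and Ccl3 was at 2.25, 11.7 and 45.5 CPM in cDC1, against 50.6, 194 and 509 in cDC2 (log2 change -3.91 ± 0.73 SE, adjusted p = 0.00139). Among 16 cytokines tested, 6 were lower and 1 higher in cDC1. Ltb, a lymphotoxin subunit, was at 3.53, 15.6 and 17.97 CPM in cDC1, against 304, 353 and 748 in cDC2 (log2 change -4.97 ± 0.41 SE, adjusted p = 3.49e-06). Il1rn, the antagonist of interleukin-1, was at 0, 0.542 and 1.47 CPM in cDC1, against 3.84, 10.4 and 14.6 in cDC2 (log2 change -3.87 ± 0.69 SE, adjusted p = 0.000647). Il12b, which cDC1 make when stimulated, did not pass in these cells from PBS-injected mice, and Ifnb1 had no count.

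Costimulatory and checkpoint genes were divided, with 5 of 18 higher and 8 lower in cDC1. Btla, an inhibitory receptor, was at 754, 982 and 1273 CPM in cDC1, against 42.05, 66.5 and 92.96 in cDC2 (log2 change 3.88 ± 0.21 SE, adjusted p = 3.75e-08). The paired ligands of CD28 went opposite ways. Cd86 was at 472, 686 and 713 CPM in cDC1, against 157, 257 and 468 in cDC2 (log2 change 1.28 ± 0.21 SE, adjusted p = 0.000429), and Cd80 was at 17.04, 20.6 and 23.5 CPM in cDC1, against 27.7, 33.8 and 44.5 in cDC2 (log2 change -0.81 ± 0.14 SE, adjusted p = 0.000616). Neither overlapped between lineages. Pdcd1lg2 (PD-L2) was at 0.549, 2.60 and 4.56 CPM in cDC1, against 18.3, 29.3 and 45.1 in cDC2 (log2 change -3.50 ± 0.40 SE, adjusted p = 2.49e-05). Icosl, Cd244a, Cd274, Cd40, Tnfsf4 and Vsir fell too, and Cd1d1, Cd200 and Havcr2 rose.

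Of 22 growth factor and cytokine receptors, 4 were higher and 9 lower in cDC1. Flt3, which both lineages need, was at 491, 739 and 922 CPM in cDC1, against 294, 354 and 462 in cDC2 (log2 change 0.99 ± 0.15 SE, adjusted p = 0.000224). Il21r was at 4.52, 12.96 and 18.97 CPM in cDC1, against 156, 214 and 265 in cDC2 (log2 change -4.10 ± 0.32 SE, adjusted p = 1.63e-06). Il6ra was at 37.6, 38.6 and 44.9 CPM in cDC1, against 71.7, 82.1 and 100.4 in cDC2 (log2 change -1.05 ± 0.11 SE, adjusted p = 7.22e-06). Kit, Csf3r, Tgfbr1, Tgfbr2, Il1r2 and Csf1r were among the other falls. Csf1r was called with an adjusted p of 0.0488, and it lost the call in 8 of 12 fits that left out 1 library.

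Of 15 Notch pathway genes, 6 were higher and 4 lower in cDC1. Notch4 was at 79.1, 309 and 617 CPM in cDC1, against 4.13, 19.4 and 46.7 in cDC2 (log2 change 3.90 ± 0.29 SE, adjusted p = 7.73e-07). In each lineage its 3 NOD libraries lay above its 3 B6 libraries. Notch1, Notch2, Rbpj and Dtx4 were among the other rises. The falls were the target Dtx1 given above, the target Hes1, the ligand Jag1 and the coactivator Maml3. Jag1 was at 0.426, 0.774 and 4.82 CPM in cDC1, against 10.8, 35.7 and 74.6 in cDC2 (log2 change -4.52 ± 0.37 SE, adjusted p = 1.41e-06). Hes1 was at 8.81, 20.7 and 31.8 CPM in cDC1, against 26.3, 36.7 and 76.6 in cDC2, with overlap (log2 change -1.12 ± 0.28 SE, adjusted p = 0.0061).

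Among 20 integrins and adhesion genes, 6 were higher and 7 lower in cDC1. Itgal (CD11a) was at 193, 254 and 300.3 CPM in cDC1, against 75.7, 96.8 and 135 in cDC2 (log2 change 1.30 ± 0.14 SE, adjusted p = 1.09e-05). Itgam (CD11b), a classical cDC2 marker, was at 1.99, 4.05 and 10.7 CPM in cDC1, against 121, 143 and 233 in cDC2 (log2 change -4.94 ± 0.38 SE, adjusted p = 1.49e-06). Itgax (CD11c), the integrin that defines dendritic cells, was at 314, 470.1 and 496 CPM in cDC1, against 549, 797 and 868 in cDC2 (log2 change -0.78 ± 0.14 SE, adjusted p = 0.000802).

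Fc receptors and their signalling partners had the largest share of falls among the 19 gene lists that are not marker lists, with 13 of 19 lower and 2 higher in cDC1. Ptpn6 (SHP-1), a phosphatase, was at 293, 342 and 408 CPM in cDC1, against 899, 1071 and 1214 in cDC2 (log2 change -1.62 ± 0.08 SE, adjusted p = 1.97e-08). Syk, the kinase of ITAM receptors, was at 97.7, 146 and 169 CPM in cDC1, against 255, 378 and 519 in cDC2 (log2 change -1.50 ± 0.13 SE, adjusted p = 1.37e-06). Sirpb1a was at 2.43, 5.57 and 28.3 CPM in cDC1, against 200.3, 291 and 328 in cDC2 (log2 change -5.15 ± 0.52 SE, adjusted p = 1.67e-05). Cd300lf was at 5.05, 11.6 and 24.96 CPM in cDC1, against 165, 191 and 241 in cDC2 (log2 change -3.86 ± 0.34 SE, adjusted p = 4.75e-06). The adaptors Fcer1g and Tyrobp and the kinase Lyn fell as well. Fcer1g was highest within cDC1 in the cDC1 B6 Rag1-/- 3 library (380 CPM, against 38.96 to 123 CPM in the other cDC1 libraries) and within cDC2 in the cDC2 B6 Rag1-/- 2 library (1373 CPM), the libraries of highest red pulp macrophage marker sum in their lineage. Fcgr1, Fcgr3 and Pilra, which did not pass, were highest in the same libraries. Without the 3 libraries of highest sum in each lineage 12 members were lower and 1 higher, with a median log2 change of -1.35, against -1.30 with all libraries. Fcrla ran the other way, at 1.62 to 3.66 CPM in cDC1 of NOD mice and 93.2 to 141 CPM in cDC1 of B6 mice, against 0.092 to 2.29 CPM in cDC2 (log2 change 4.44 ± 0.98 SE, adjusted p = 0.004). It was called in B6 libraries alone and not in NOD libraries alone (adjusted p = 0.194), nor in the 6 libraries left without those of highest macrophage marker sum, where its log2 change was 4.95 (adjusted p = 0.114). The NOD minus B6 difference in its lineage change was -4.63 ± 0.95 (SE, adjusted p = 0.107) and was not called.

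Genes for the uptake of dead cells and scavenger receptors gave 4 rises and 2 falls among 19 (31.6% called, against 38.5% of all tested genes). Cd36 was at 697, 869.8 and 1192 CPM in cDC1, against 3.27, 23.1 and 28.4 in cDC2 (log2 change 5.50 ± 0.47 SE, adjusted p = 4.13e-06). Havcr2 (TIM-3) was at 523, 648 and 721 CPM in cDC1, against 153, 343 and 408 in cDC2 (log2 change 1.01 ± 0.20 SE, adjusted p = 0.00132). Mfge8, a bridge to dying cells, was at 3.23, 4.24 and 5.74 CPM in cDC1, against 8.55, 10.9 and 15.8 in cDC2 (log2 change -1.42 ± 0.23 SE, adjusted p = 0.000313). With sort date as a block the list gave 4 rises and 11 falls. The list also holds genes that macrophages express, such as C1qa and Axl.

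Of 20 genes of oxidative phosphorylation, 13 were higher and none lower, with a median log2 change of 0.39. Cycs, cytochrome c, was at 418, 480.4 and 554 CPM in cDC1, against 172, 190.1 and 248 in cDC2 (log2 change 1.30 ± 0.11 SE, adjusted p = 9.52e-07). Uqcrc2 of complex III was at 184, 198 and 227 CPM in cDC1, against 109, 129 and 142 in cDC2 (log2 change 0.64 ± 0.08 SE, adjusted p = 3.68e-05). Without scaling factors 10 were higher and 1 lower, and without the 3 libraries of highest macrophage marker sum in each lineage, 2 were higher and the median was 0.41. Of 20 genes of sterol synthesis, 8 were higher and none lower. Nsdhl, an enzyme of that pathway, was at 46.03, 58.4 and 72.1 CPM in cDC1, against 15.9, 20.02 and 29.1 in cDC2 (log2 change 1.47 ± 0.11 SE, adjusted p = 3.53e-07). Without scaling factors 4 were higher, and without the libraries of 04.03.2015 or of highest macrophage markers, 3. The median log2 change was 0.62 with all libraries, 0.59 without those of 04.03.2015 and 0.79 without those of highest macrophage markers. None of 25 cell cycle genes passed with edgeR in either direction, none had an unadjusted p under 0.05, and DESeq2 called none. With sort date as a block 1 was called lower.

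Markers of other cells were present in both lineages and differed between sort dates. In these bulk libraries fewer cells of a type and less RNA per cell cannot be told apart. The sum of 12 red pulp macrophage markers was 1024, 1662 and 7200 CPM (lowest, median, highest) in cDC1, against 1459, 4325 and 24258 CPM in cDC2. The 2 highest sums of cDC1 and the highest of cDC2 were in libraries sorted on 04.03.2015. With strain as the block, 1 marker was lower (Adgre1, the antigen F4/80) and 1 higher (Treml4) in cDC1. Treml4 lost its call in most fits that left out 1 library. With sort date as a block 11 markers were lower and 1 higher. Erythroid markers summed to 457 to 13688 CPM in cDC1, against 819 to 22442 CPM in cDC2, with 1 of 11 called lower and 10 of 11 with sort date as a block. Neutrophil markers summed to 20.8 to 93.6 CPM in cDC1, against 5.65 to 778 CPM in cDC2, and none of 11 passed with edgeR, while 1 was lower at an unadjusted p under 0.05, by DESeq2 and with sort date as a block. NK cell markers summed to 128 to 221 CPM in cDC1, against 67.2 to 313 CPM in cDC2, with Klrk1 higher in cDC1 and Il2rb, Klre1 and Gzmb lower, although Klre1 and Gzmb lost the call in most fits that left out 1 library. Their part in the lineage differences was not tested beyond the fits without these libraries and with sort date as a block. Those fits called 2164 and 5354 genes, of which 2055 and 4422 were among the 4770.

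**Figure D4:**
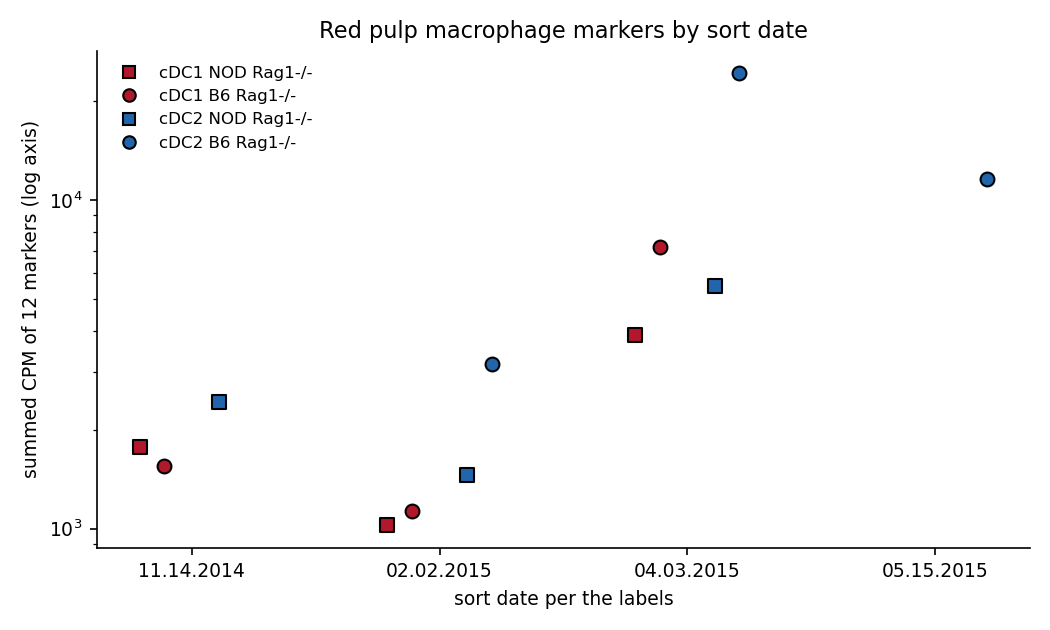
Summed CPM of 12 red pulp macrophage markers (log axis) in each library by sort date, cDC1 in red left of cDC2 in blue within a date. On each date that holds both lineages of a strain, cDC2 lies above cDC1, and the 04.03.2015 libraries reach 7200 CPM in cDC1 and 24258 CPM in cDC2.

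Of 7 tested B cell markers, 6 were lower and 1 higher in cDC1, and the list summed to 30.1 to 81.6 CPM in cDC1, against 257 to 442 CPM in cDC2. Cr2, complement receptor 2, had 1 count over all cDC1 libraries and 2332 over cDC2 libraries, where it was at 3.96, 16.7 and 40.8 CPM. Blk, a Src-family kinase, was at 0, 0 and 1.12 CPM in cDC1, against 13.4, 30.6 and 49.8 in cDC2 (log2 change -7.43 ± 0.74 SE, adjusted p = 1.12e-05). Cd22, an inhibitory sialic acid receptor, was at 8.67, 13.5 and 28.02 CPM in cDC1, against 154, 252 and 364 in cDC2 (log2 change -4.12 ± 0.33 SE, adjusted p = 1.99e-06). The defining gene Cd79a was near 0 in both lineages, as given above. Ms4a1 (CD20) was the gene higher in cDC1, at 7.76, 23.5 and 52.9 CPM in cDC1, against 3.34, 7.05 and 14.99 in cDC2, with overlap (log2 change 1.46 ± 0.18 SE, adjusted p = 3.63e-05). Of 11 markers of plasmacytoid dendritic cells, 4 were higher and 3 lower in cDC1 (63.6% called). Of 13 monocyte and macrophage markers 3 were higher and 2 lower (38.5%), and of 5 tested platelet markers 1 was lower (20%). Among all tested genes 38.5% were called. Siglech, among the 4 plasmacytoid markers higher in cDC1, and Ppbp, the platelet gene, lost their calls in most fits that left out 1 library. Both were also not called with sort date as a block (adjusted p of 0.0571 for Siglech and 0.219 for Ppbp). Cd5, listed as a T cell marker, was at 1.78, 4.60 and 6.83 CPM in cDC1, against 16.6, 26.3 and 32.8 in cDC2 (log2 change -2.50 ± 0.29 SE, adjusted p = 2.17e-05).

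In fits with a mean for each lineage and strain, 3425 genes (27.6%) were called in NOD Rag1-/- mice and 2964 (23.9%) in B6 Rag1-/- mice. Of the 4770 genes called over both strains, 2238 were called in each, and 7 of all tested genes were called in both strains with opposite signs. The strain by lineage interaction (NOD minus B6) called 21 genes (0.169%), 6 of them (0.0484%) with a higher and 15 (0.121%) with a lower lineage difference in NOD. This count was unstable. It was 8, 13 and 12 without the cDC1 B6 Rag1-/- 1, cDC1 B6 Rag1-/- 2 and cDC1 NOD Rag1-/- 3 library, 47 and 12 without cDC2 B6 Rag1-/- 1 and cDC2 B6 Rag1-/- 3, and 59 with sort date as a block.

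Fcgr2b, the inhibitory Fc receptor, averaged 4.19 ± 0.449 CPM in cDC1 and 21.6 ± 11.5 CPM in cDC2 of NOD mice, and 124 ± 12.2 CPM in cDC1 and 37.1 ± 1.37 CPM in cDC2 of B6 mice (SD, n = 3 each). Its lineage log2 change was -2.36 in NOD and 1.74 in B6 mice, a difference of -4.10 ± 0.46 (SE, adjusted p = 0.00905). Med7, a Mediator subunit, and Ppfibp1, a liprin, had lineage log2 changes of unequal size, 0.77 in NOD and 2.43 in B6 mice for Med7, and 0.66 in NOD and 2.43 in B6 mice for Ppfibp1. The other named genes were the transcripts E330020D12Rik and A530064D06Rik, with differences of -3.96 ± 0.47 (SE, adjusted p = 0.00905) and 2.86 ± 0.36 (SE, adjusted p = 0.00905).

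The lineage difference was set beside that in Rag-sufficient mice, whose 24 libraries are other samples. In a joint fit over 36 libraries the lineage contrast of NOD and B6g7 mice called 5394 of 13156 genes (41%). Of the 4770 genes called in Rag1-/- mice, 4696 (98.45%) had the same sign in Rag-sufficient mice, and 3421 of these were called there, while 7 were called with the opposite sign. Of 1072 genes with at least a 4-fold difference in Rag1-/- mice, 1067 had the same sign and 1009 of these were called. Across the 12393 genes, which are not independent replicates, Pearson's r of the log2 changes was 0.881.

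The genotype by lineage interaction called 106 genes (0.806%), 6 (0.0456%) with a higher and 100 (0.76%) with a lower cDC1 minus cDC2 difference in Rag1-/- than in Rag-sufficient mice. Genotype, sequencing run, sort date and cell number (2000 to 5000 in these Rag-sufficient libraries) cannot be told apart, although each genotype holds both lineages. The labelled cDNA input differed along the interaction itself. It was lower in some Rag-sufficient cDC2 libraries and equal in all other cDC libraries of both genotypes. Low RNA integrity was likewise found only in cDC2 libraries of B6g7 mice, and 117 genes were called without these. The part of cDNA input in the interaction was not tested. B6 Rag1-/- mice also stand beside B6g7 mice, which carry the NOD class II haplotype H2g7. Of the 100 genes, 73 averaged less in Rag1-/- than in Rag-sufficient cDC1, and 77 averaged more in Rag1-/- than in Rag-sufficient cDC2. For 49 the highest Rag1-/- cDC2 library was cDC2 B6 Rag1-/- 2, which was the highest for 21.6% of all genes. That library had the highest macrophage sum. On the scale of this fit the red pulp macrophage sum was 1310 to 21829 CPM in Rag1-/- cDC2 and 555 to 1140 CPM in Rag-sufficient cDC2. In cDC1 it was 953 to 6342 CPM in Rag1-/- and 786 to 1608 CPM in Rag-sufficient mice. Without the 3 Rag1-/- libraries of highest sum in each lineage 14 genes were called, all lower, and 11 of them were among the 106. With sort date as a block 617 were called, 174 higher and 443 lower, and without the cDC1 B6 Rag1-/- 1 library 66.

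The named genes differed in where the means lay apart, which was not tested within a lineage. Galc, a lysosomal galactosidase, averaged 21.9 ± 4.83 CPM in Rag1-/- cDC1 (SD, n = 6) and 26.1 ± 9.54 CPM in Rag-sufficient cDC1 (SD, n = 12), and 10.5 ± 8.54 CPM in Rag1-/- cDC2 and 1.54 ± 0.760 CPM in Rag-sufficient cDC2. Plin2, a lipid droplet protein, averaged 51.1 ± 38.3 CPM in Rag1-/- cDC2 and 13.7 ± 4.09 CPM in Rag-sufficient cDC2. Galc, Plin2, Cd300e and Treml4 were no longer called without the libraries of highest macrophage sum (adjusted p of 0.0787 to 0.351), while Idh1 was (adjusted p = 0.0448). On the log2 scale Galc was then at -1.94, against -2.84 with all libraries, Plin2 at -0.98, against -1.91, Cd300e at -1.86, against -2.29, and Treml4 at -1.10, against -1.61.

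For other genes the means lay apart in cDC1, alone or together with cDC2. Clec2i, a ligand of NK receptors, averaged 9.67 ± 3.66 CPM in Rag1-/- cDC1 and 32.7 ± 6.36 CPM in Rag-sufficient cDC1, and 80.7 ± 35.9 CPM in Rag1-/- cDC2 and 61.5 ± 31.9 CPM in Rag-sufficient cDC2. Its interaction of -2.26 ± 0.28 (SE, adjusted p = 2.07e-05) was called without those libraries too (adjusted p = 0.00333). Il21r averaged 10.99 ± 4.72 CPM in Rag1-/- cDC1 and 34.6 ± 10.4 CPM in Rag-sufficient cDC1, with 187 ± 35.6 CPM in Rag1-/- cDC2 and 149.7 ± 33.3 CPM in Rag-sufficient cDC2. Its interaction was -1.98 ± 0.32 (SE, adjusted p = 0.00155) and it was called without those libraries too (adjusted p = 0.00333). Il21r was not called in B6 strains alone (log2 -1.87, adjusted p = 0.0534) or in NOD strains alone (-2.07, adjusted p = 0.151). Ltb averaged 12.3 ± 4.75 CPM in Rag1-/- cDC1 and 112 ± 46.2 CPM in Rag-sufficient cDC1. In cDC2 it averaged 384 ± 154 CPM in Rag1-/- and 817 ± 253 CPM in Rag-sufficient mice. Its interaction was -2.08 ± 0.40 (SE, adjusted p = 0.00658). In B6 strains alone it was -1.11 and not called (adjusted p = 0.688). Without those libraries it was larger, at -2.85, but not called (adjusted p = 0.125). Ccl5 averaged 18.4 ± 7.43 CPM in Rag1-/- cDC1 and 249.97 ± 138 CPM in Rag-sufficient cDC1, and 226 ± 69.1 CPM in Rag1-/- cDC2 and 667 ± 354 CPM in Rag-sufficient cDC2. Its interaction was -2.20 ± 0.53 (SE, adjusted p = 0.0358). It lost its call in 7 of 12 fits that left out 1 Rag1-/- library (adjusted p of 0.0521 to 0.102), in B6 strains alone (log2 -2.29), in NOD strains alone (-2.09) and without those libraries (-2.55, adjusted p = 0.328). Beside these values, B cell markers summed to 45.8 ± 15.2 CPM in Rag1-/- cDC1 and 197 ± 195 CPM in Rag-sufficient cDC1, and Cd79a reached 242 CPM in the highest Rag-sufficient cDC1 library. T cell markers summed to 5.27 ± 1.69 CPM in Rag1-/- cDC1 and 26.1 ± 27.4 CPM in Rag-sufficient cDC1, and 26.2 ± 4.56 CPM in Rag1-/- cDC2 and 60.5 ± 38.9 CPM in Rag-sufficient cDC2. The part of such RNA in the values of Rag-sufficient mice was not tested.

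**Figure D5:**
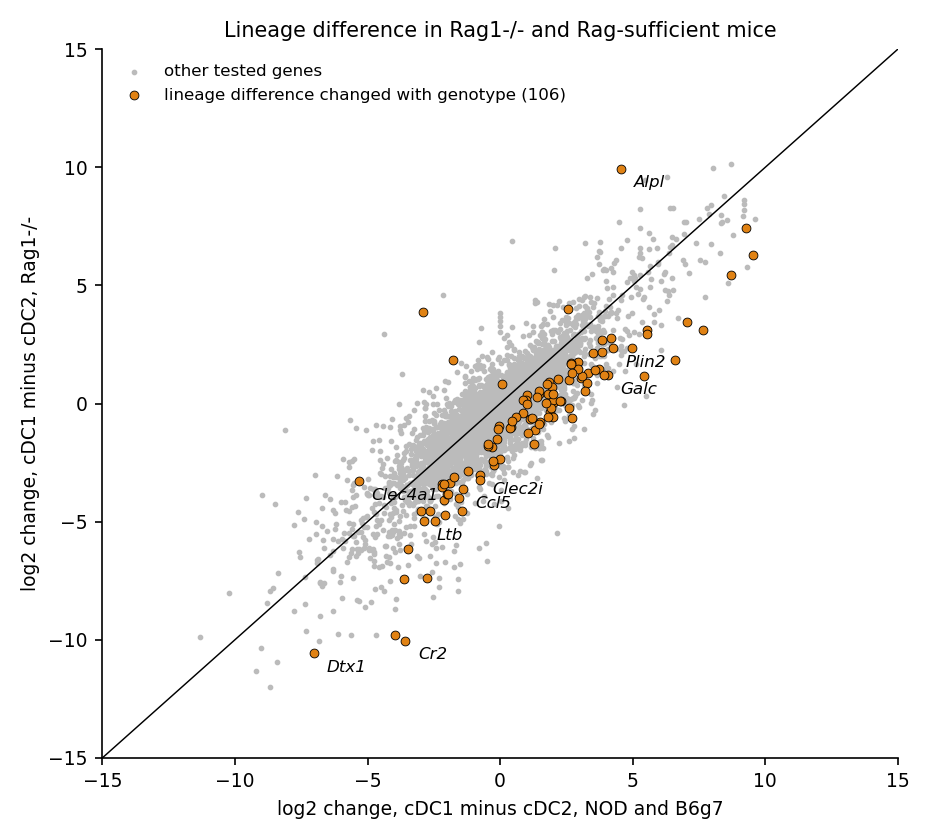
log2 change, cDC1 minus cDC2, of each tested gene in Rag1-/- mice (vertical) and in Rag-sufficient mice (horizontal), with 106 genes of unequal change in orange and the line of equality. Most orange points lie below the line, among them Clec2i, Ltb, Galc, Dtx1 and Cr2, while Alpl and Clec4a1 lie above it.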

How the data were processed

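The authors deposited expected counts per transcript, made with RSEM per the submitters' processing notes. The table is named as CPM, but its column totals differ between libraries and exceed those of that unit, so it was used as estimated counts. Genome build, annotation and mapping settings are not stated there. Of 35070 transcripts, 34710 were named by RefSeq and 262 by the authors' table, and expected counts were summed to 24437 genes and rounded. A second deposited table holds values post-processed by the authors on a log2 scale (unit score), with limma named in the submitters' processing notes, and was used in 1 alternative. No column of per-sample values was left unused in the count table (0).

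Genes that reached 1 CPM in 3 or more libraries were tested with edgeR 4.0.16 (robust quasi-likelihood test, TMM factors, Benjamini-Hochberg threshold 0.05, R 4.3.3), with strain as a block over the 12 libraries. Every adjusted p is from edgeR unless another tool is named, and each standard error is the log2 change divided by the square root of the F statistic. The residual degrees of freedom were 9 and the biological coefficient of variation 35.2%. CPM is scaled by TMM and not by length, so levels are compared between libraries and not between genes. The strain interaction was tested with 1 mean per group. That with Rag1 genotype was tested over 36 libraries, with 1 mean per strain and genotype. It took 1 lineage difference per genotype, shared by the strains of that genotype. DESeq2 1.42.0, limma 3.58.1, other scaling and filters, blocks and left-out libraries were alternatives, and scripts were tested on simulated data.

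Same-dated cDC1 and cDC2 libraries of a strain deviated together (correlations 0.278 and 0.419 in B6, 0.334 to 0.409 in NOD). Same-numbered libraries share a date in NOD, but not in B6, where the correlations were -0.248 to 0.17, so the replicate numbers do not pair the B6 libraries. The members and gene lists were chosen with earlier results of these data known, and lists were counted and not tested. Named are the 4 markers, lineage transcription factors, the 15 largest rises and falls without overlap at a mean of at least 10 CPM, up to 4 called members per list and direction with the smallest p, members that show a family's range, and 6 genes per interaction. Some genes that these rules name are not reported here, in text or figures, though counts of lists include them. Alternatives without single sort dates or without high macrophage markers were added after seeing the data. The latter left out the 3 libraries of highest red pulp macrophage sum in each lineage, whatever their level. Those kept had sums of 1024 to 1553 CPM in cDC1 and 1459 to 3167 CPM in cDC2, so the lineages were not made equal. Only cDC1 NOD Rag1-/- 2 and cDC2 B6 Rag1-/- 1 were kept of their groups.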

Additional observations from a re-analysis of the deposited data

Results flagged for a closer look

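For 186 named genes, the 6 libraries of each lineage were searched for 1 library far from the other 5, by the gap to its neighbour over the whole range. Of 372 groups, 24 stood out, where chance gives about 1 in 20. In cDC1 the B6 Rag1-/- 3 library was the high one for Zeb2 (46.3 CPM), Sirpb1a (28.3 CPM), Ryr3 (0.366 CPM) and Sel1l3 (0.427 CPM), and its red pulp macrophage sum was the highest of cDC1 (7200 CPM). The cDC1 NOD Rag1-/- 1 library stood apart for Cr2 (0.062 CPM, a single count where the other 5 libraries had 0) and Blk (1.12 CPM), and cDC1 NOD Rag1-/- 2 for Ltb (3.53 CPM) and Cd86 (472 CPM). The cDC1 B6 Rag1-/- 1 library stood apart for Cebpb (8.88 CPM) and cDC1 B6 Rag1-/- 2 for Trim30a (257 CPM).

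In cDC2 the B6 Rag1-/- 2 library, with the highest macrophage sum of all (24258 CPM), stood apart for Zbtb46 (100.6 CPM), Cd1d1 (188 CPM), Scel (15.5 CPM) and Alpl (0.115 CPM, 2 counts where the others had 0). A lone library with any count at such a floor always stands apart. The part of macrophage RNA in these values was not tested. The cDC2 B6 Rag1-/- 1 library stood apart for Cadm3 (13.9 CPM) and Clec9a (0.701 CPM), and cDC2 B6 Rag1-/- 3 for Gramd2 (0.595 CPM) and Trabd2b (0.271 CPM). The cDC2 NOD Rag1-/- 1 library stood apart for Nr4a1 (120.4 CPM), Ccr9 (2.995 CPM) and Cyp8b1 (1.01 CPM), cDC2 NOD Rag1-/- 2 for Ifi35 (97.01 CPM) and Cycs (248 CPM), and cDC2 NOD Rag1-/- 3 for Pacsin1 (4.43 CPM).

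The lineage difference was unequal between the strains (NOD minus B6, log2 scale, edgeR interaction) for Fcgr2b (-4.10), E330020D12Rik (-3.96), Ppfibp1 (-1.77), Med7 (-1.66) and A530064D06Rik (2.86), with adjusted p of 0.00905 to 0.00985.

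It was unequal between Rag1-/- and Rag-sufficient mice (log2 scale, edgeR interaction) for Cr2 (-6.47), Blk (-3.81), Dtx1 (-3.54), Jag1 (-3.12), Galc (-2.84), Cadm3 (-2.70), Cd209a (-2.45), Cd300e (-2.29), Clec2i (-2.26), Ccl5 (-2.20), Idh1 (-2.18), Ltb (-2.08), Il21r (-1.98), Plin2 (-1.91) and Treml4 (-1.61). It was higher in Rag1-/- mice for Alpl (5.37) and Clec4a1 (2.05). Adjusted p ran from 2.07e-05 for Clec2i to 0.0358 for Ccl5. Clec4a1 lost its call without the cDC1 B6 Rag1-/- 3 library (1.33, adjusted p = 0.229). With replicate number as a block Alpl (4.67), Clec4a1 (1.72) and Dtx1 (-3.31) were not called. Alpl, Clec4a1, Ccl5, Dtx1, Galc and Il21r were called neither in B6 strains alone nor in NOD strains alone. Cr2, Cd209a, Ltb and Cadm3 were not called in B6 strains alone. Blk, Jag1, Treml4, Cd300e and Plin2 were not called in NOD strains alone. Without the libraries of high macrophage markers, Alpl (7.11), Clec4a1 (1.04), Cr2 (-7.47), Dtx1 (-4.01), Jag1 (-4.13) and Cd209a (-3.24) were also not called.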

How the results depend on the processing

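The count of genes called between lineages (4770) was 4318 to 4876 without 1 library, 4835 with replicate number and 5354 with sort date as a block, 5215 with DESeq2 and 5015 with limma. It was 3024 with all Rag1-/- libraries in the fit, 2302 in B6 mice alone (6 libraries) and 2164 without the libraries of high macrophage markers (6 libraries). Called list memberships, where a gene on several lists counts once for each, numbered 274 (131 higher and 143 lower), and 181 in B6 mice alone. With sort date as a block 136 were higher and 196 lower, without scaling factors 112 and 169, and without the libraries of high macrophage markers 88 and 140. The strain interaction (21 genes) called 36 without scaling factors, 193 with DESeq2, 35 with the replicate block, 59 with the sort date block and 8 to 47 without 1 library. The genotype interaction (106 genes) called 35 in B6 and 20 in NOD strains alone, 617 with the sort date block, 472 with the replicate block, 61 without scaling factors, 14 without the libraries of high macrophage markers, 117 without 2 cDC2 B6g7 libraries of low RNA integrity and 66 to 130 without 1 library. RNA per cell differed by 0.115 pg in NOD and 0.132 pg in B6 mice alone, past no threshold.

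H2-Ab1 and H2-Aa changed direction, to -0.38 and -0.20, with the authors' post-processed values. Nfil3 and Ahr, which were not called (log2 change 0.01 and -0.12), changed sign in some fits. Nfil3 was at -0.0099 with RLE factors, -0.18 without scaling factors, -0.012 with DESeq2, -0.0031 without a filter, -0.018 with the stricter filter and -0.065 in NOD mice alone. It was at -0.049 without the 04.03.2015 libraries, -0.15 without those of high macrophage markers and -0.30 to 0.43 without 1 library. Ahr was at 0.35 in B6 mice alone, 0.072 without the 11.14.2014 libraries and -0.27 to 0.063 without 1 library. The cause of these differences, some of which come from fits on fewer libraries, was not tested. Depth limits genes with few counts in cDC1, such as Cr2.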
